A study of Homo sapiens with 9 samples.

Results

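Broad γH2AX peaks, taken here as autosomal peaks at least 3000 bp wide, numbered 8541 of the 213253 autosomal peaks in 8 deposited peak lists. They were chosen by the width of each peak in its own list, and they were compared with the 154499 peaks under 1000 bp, called narrow peaks here, of the same lists. γH2AX chromatin immunoprecipitation sequencing (ChIP-seq) was performed on a human lymphoblastoid B-lymphocyte line, named GM07027 in the study's methods and GM09027A in its labels. The cells were left untreated or were exposed for 24 h to 0.1 μg/mL aphidicolin (APH), 2 mM hydroxyurea (HU) or 200 μM methyl methanesulfonate (MMS). Each of the 4 conditions had 2 replicates from separate treatments and separate immunoprecipitations, and all came from 1 cell line, so other B cells were not sampled. The B-lymphocyte label could not be checked against marker genes, since the files hold peaks and no expression values. The input library was not analysed here.

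H2AX is a histone variant that the kinases ATR and ATM phosphorylate near stalled or broken replication forks, and the phosphorylated form, γH2AX, spreads along the chromatin on both sides. APH inhibits replicative DNA polymerases, HU depletes the nucleotide pool through ribonucleotide reductase, and MMS methylates DNA bases. Common fragile sites are large regions that break preferentially when replication is slowed, and FHIT and WWOX are the best known genes within them. The width of a peak is the length of chromatin that the peak caller joined into 1 enriched region.

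The 300 bp at the midpoints of 3 of the broadest or most widely shared sites are given on the plus strand of GRCh38, because they show what kind of sequence lay at the centre of the largest domains at chromosome ends. The windows were chr9:542673-542972 in an intron of KANK1, chr21:46548741-46549040 in an intron of DIP2A, and chr21:46609630-46609929 between genes near S100B. None overlapped an annotated UTR. Each label names the conditions or lists with a broad peak in the site around the window. Whether their peaks covered the window itself was not checked. CpG dinucleotides are in capitals.
KANK1 intron, untreated, APH and MMS: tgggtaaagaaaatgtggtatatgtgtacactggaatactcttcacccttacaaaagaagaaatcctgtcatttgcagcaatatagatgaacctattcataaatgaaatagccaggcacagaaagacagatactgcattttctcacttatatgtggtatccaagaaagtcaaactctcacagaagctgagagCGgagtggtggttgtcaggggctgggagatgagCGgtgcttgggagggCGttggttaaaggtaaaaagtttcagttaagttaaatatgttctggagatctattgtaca
DIP2A intron, untreated and APH: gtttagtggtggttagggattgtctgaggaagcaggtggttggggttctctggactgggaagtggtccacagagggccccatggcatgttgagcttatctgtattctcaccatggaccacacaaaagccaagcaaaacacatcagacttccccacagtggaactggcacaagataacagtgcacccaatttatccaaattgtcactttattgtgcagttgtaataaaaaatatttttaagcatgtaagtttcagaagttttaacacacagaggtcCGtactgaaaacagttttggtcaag
Near S100B, broad in 7 lists: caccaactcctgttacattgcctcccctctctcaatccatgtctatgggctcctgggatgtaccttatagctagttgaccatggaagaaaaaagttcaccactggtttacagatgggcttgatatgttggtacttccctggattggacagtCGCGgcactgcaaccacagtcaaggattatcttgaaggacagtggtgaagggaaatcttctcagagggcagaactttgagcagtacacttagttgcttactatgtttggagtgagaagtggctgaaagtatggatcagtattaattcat
The KANK1 window held 3 CpG and was 40.3% GC, the DIP2A window held 1 CpG at 43.3% GC, and the S100B window held 2 CpG at 45% GC. A perfect tandem repeat of 20 bp or longer, with a unit of no more than 6 bp, was found in none of these windows.

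Broad peaks were most numerous under HU and were almost lacking under MMS. The untreated lists held 139 and 112 of them in replicates 1 and 2, the APH lists 205 and 173, the HU lists 4581 and 3308, and the MMS lists 12 and 11. As a share of the autosomal peaks of the same list, they made up 2.91% and 2.59% in untreated cells, 1.16% and 1.23% after APH, 5.73% and 4.73% after HU, and 0.0983% and 0.105% after MMS. The MMS lists held more peaks of all widths (12202 and 10465) than the untreated lists (4779 and 4327), yet fewer broad ones. Untreated cells therefore had a larger share of broad peaks than APH-treated or MMS-treated cells in both replicates, and no replicate of 1 condition overlapped those of another in this share. With 2 lists a condition, and with widths being the criterion of choice, these counts are a description without a test. Depth cannot be read from peak lists, and the effect of depth on peak number and width was not tested.

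Width varied among the members in a different order from their number. The median width of broad peaks was 5631 and 4748 bp in untreated cells, 4522 and 4937 bp after APH, 4020 and 4003 bp after HU, and 3396 and 4037 bp after MMS. The widest peak measured 43.7 and 35.9 kb in the untreated replicates, 44.8 and 41.0 kb after APH, 36.6 and 25.1 kb after HU, and only 4.93 and 5.68 kb after MMS. Peaks of at least 10 kb made up 18.0% and 9.82% of the broad peaks in untreated cells and 14.6% and 15.6% after APH, against 3.30% and 2.45% after HU and 0 of 12 and 0 of 11 after MMS. Broad peaks covered 26.7% and 21.7% of all peak bases in untreated cells, 10.5% and 11.9% after APH, 24.3% and 20.8% after HU, and 0.619% and 0.742% after MMS. At the threshold, the narrowest members measured 3000 to 3084 bp and the widest peaks left out 2936 to 2999 bp, depending on the list.

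**Figure D1:**
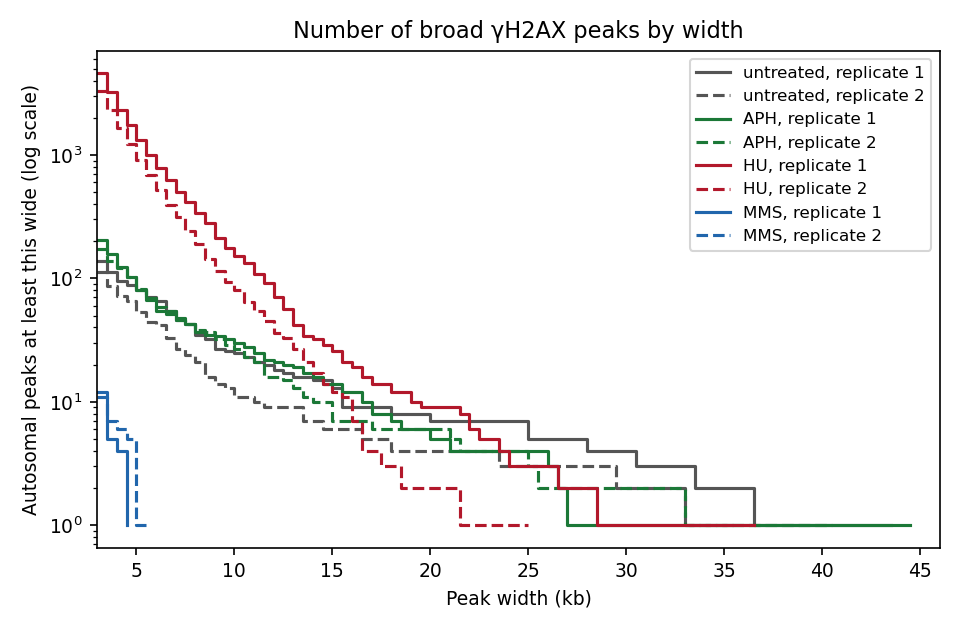
Number of autosomal peaks (log scale) at least as wide as the value on the x axis (kb), 1 line per list, solid for replicate 1 and dashed for replicate 2. The HU lines start highest, at 4581 and 3308 peaks, while the widest peaks of all, up to 44.8 kb, belong to APH and untreated cells, and the MMS lines end below 6 kb.

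Broad peaks had a slightly higher median fold enrichment than narrow peaks in all 8 lists, but the smallest p-values belonged to narrow peaks. The median fold enrichment over background lay between 2.75 and 2.97 for broad peaks over the 8 lists and between 2.54 and 2.74 for narrow peaks. The highest fold enrichment was larger among narrow than among broad peaks in 7 lists, whereas in untreated replicate 1 it was 4.44 among broad and 3.94 among narrow peaks. The −log10 p reached 29.1 to 66.1 among narrow peaks and 4.47 to 10.3 among broad ones. After HU, 99.4% and 95.4% of the broad peaks had a q-value of at most 0.05, whereas the share was 4.32% and 1.79% in untreated cells, 5.37% and 12.7% after APH, and 0% after MMS, where 0 of 12 and 0 of 11 broad peaks passed. Outside HU, most broad peaks therefore passed the caller's p-value cutoff and would not have passed this q-value. Among narrow peaks the share with such a q-value was 71.7% and 52.2% after HU and 0.169% to 1.1% in the other lists. The gap between HU and the other lists was thus present in both width classes and was not specific to broad peaks. These values belong to the same peaks that the width selected and were not tested.

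The broad peaks of untreated, APH-treated and MMS-treated cells lay at the ends of chromosomes, and those of HU-treated cells did not. All 139 and all 112 broad peaks of untreated cells had their midpoint within 5 Mb of a chromosome end, as did 193 of 205 and 171 of 173 after APH and all 12 and 11 after MMS, against 266 of 4581 and 222 of 3308 after HU. As shares these were 100% and 100%, 94.1% and 98.8%, 100% and 100%, and 5.81% and 6.71%, while the 5 Mb at both ends make up 7.65% of autosomal length. Narrow peaks of the same lists lay there less often outside HU, with 23% and 23.7% in untreated cells, 15.5% and 15.0% after APH, and 13.9% and 11.9% after MMS. The narrow peaks of HU, at 8.08% and 8.21%, lay there slightly more often than the broad ones. Within 1 Mb of an end lay 92.1% and 93.8% of the broad peaks of untreated cells, 92.2% and 97.1% after APH, 91.7% and 100% after MMS, and 1.20% and 1.24% after HU. The farthest broad peak of untreated cells was 1.53 Mb from an end.

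Averaged over the 8 lists, the share near an end was 60.8 percentage points higher for broad than for narrow peaks (SD 38.9, n = 8 lists, higher in 6 of 8), which gave an exact two-sided sign-flip p of 0.0313 and, adjusted over the 6 features tested, 0.0625. The difference was 81.7 points (SD 5, n = 6 lists) outside HU and −1.89 points (SD 0.544, n = 2) under HU. An exact permutation test of the 2 HU lists against the other 6 gave p = 0.0357, the smallest this design allows, and 0.0714 after adjustment over 6 features. This test, here and for the features below, takes lists as units. Replicates of a condition share broad sites and HU is 1 of 4 conditions, so the lists are not fully independent. Without chromosome 9, which held the largest group of terminal broad peaks outside HU, the corresponding means were 79.6 and −1.82 points, with the MMS lists dropping out because they kept fewer than 5 broad peaks.

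**Figure D2:**
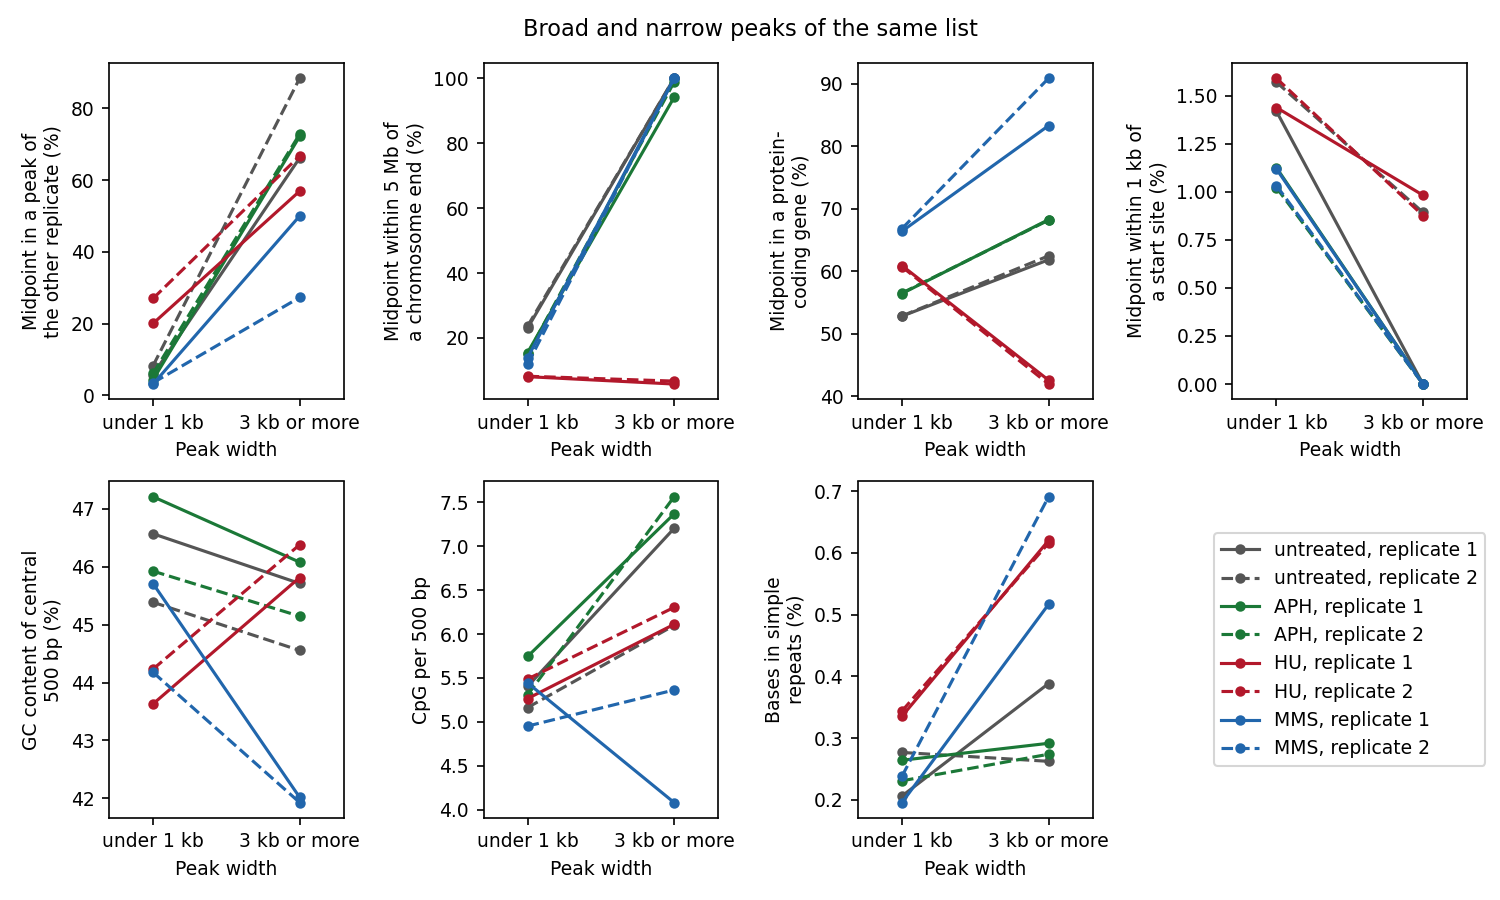
Each line joins the narrow peaks (under 1 kb) and the broad peaks (3 kb or more) of 1 list, for 7 features of the peaks, solid for replicate 1 and dashed for replicate 2. Broad peaks outside HU reach 94.1% to 100% within 5 Mb of a chromosome end while the HU lines stay between 5.81% and 8.21%, and the HU lines run opposite to the others for gene bodies, chromosome ends and GC content. The y axes do not start at 0 in all panels.

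The outermost 5 Mb of the short arm of chromosome 9 carried the largest group outside HU, and the other chromosome ends named here are taken over the same length. It held 62 and 56 broad peaks in untreated cells, 54 and 58 after APH, 9 and 7 after MMS, and 3 and 5 after HU. In untreated cells that was 44.6% and 50% of all broad peaks, after APH 26.3% and 33.5%, and after MMS 75.0% and 63.6%. The broad HU peaks of this end spanned chr9:657249-4785075 and chr9:4742445-4993025, against chr9:203583-1532998 and chr9:206126-1421646 in untreated cells. Within the first 1.1 Mb, peaks of any width covered 656 and 569 kb in untreated cells, 519 and 591 kb after APH, 154 and 174 kb after MMS, and 39.9 and 44.8 kb after HU. The APH and untreated ranges overlapped, and both MMS lists lay below them and above both HU lists. The arm carries DOCK8, a guanine nucleotide exchange factor of lymphocytes, KANK1, a regulator of actin assembly, and DMRT1 and DMRT3, transcription factors of the gonad.

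**Figure D3:**
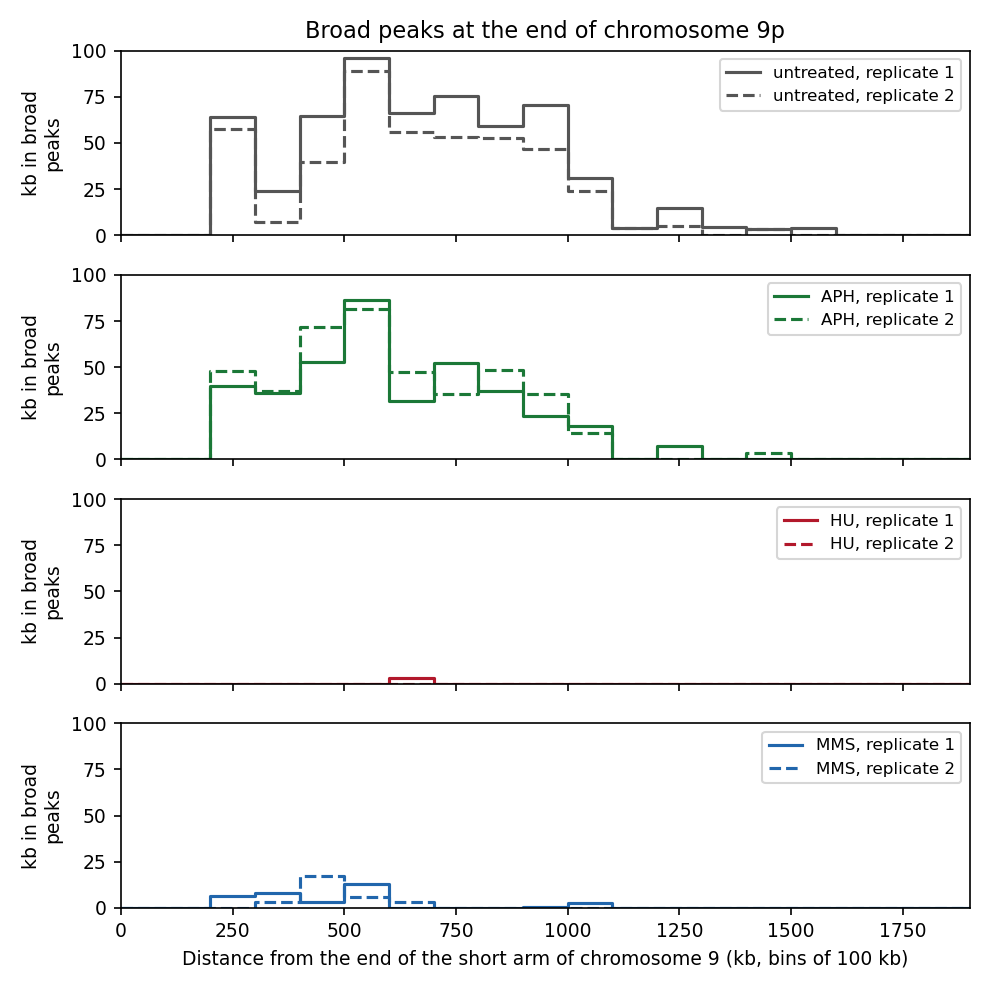
Bases covered by broad peaks (kb) in bins of 100 kb, against the distance from the end of the short arm of chromosome 9 (kb), for each condition, solid for replicate 1 and dashed for replicate 2. Within the first 1.1 Mb broad peaks covered 552 and 426 kb in untreated cells and 377 and 419 kb after APH, but 33.2 and 29.1 kb after MMS and 3.31 and 0 kb after HU.

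Summed over both replicates, KANK1 held the most broad peaks of any gene in untreated, APH-treated and MMS-treated cells. Its body (chr9:470291-746105) held 13 and 19 broad peaks in untreated cells, 17 and 19 after APH, 4 and 5 after MMS, and 1 and 0 after HU. The broadest site of all, chr9:505462-580183 in introns of KANK1, was under peaks of any width over 73.8 and 69.6 kb in untreated cells, 68.5 and 65.6 kb after APH, 28.5 and 24.6 kb after MMS, and 5.59 and 5.03 kb after HU. The untreated and APH lists covered most of this site, the MMS lists had 18 and 20 separate peaks in it, and the HU lists had 8 peaks each. The adjoining KANK1 site chr9:470725-504147 was a single peak of 33.4 and 32.7 kb in the untreated replicates. It was covered over 31.8 and 32.8 kb after APH, 11.4 and 20.4 kb after MMS, and 3.43 and 3.11 kb after HU. Further sites in introns of the same gene, chr9:581069-613526 and chr9:620278-642362, had 20.2 to 30.6 kb under peaks in untreated cells and 0.200 to 2.38 kb after HU.

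DOCK8 and DMRT1 lie on either side of KANK1, and neither had a broad peak after HU. DOCK8 (chr9:214854-465259) held 15 and 6 broad peaks in untreated cells, 17 and 17 after APH, and 4 and 2 after MMS. Its intronic site chr9:235820-272505 was covered over 36.2 and 35.5 kb in untreated cells, 26.3 and 28.8 kb after APH, 12.7 and 11.3 kb after MMS, and 3.81 and 5.76 kb after HU. A second DOCK8 site, chr9:332134-359117, had 19.6 and 14.4 kb in untreated cells, 21.1 and 19.7 kb after APH, 11.7 and 10.7 kb after MMS, and 0.443 and 1.31 kb after HU. DMRT1 held 12 and 13 broad peaks in untreated cells and 7 and 10 after APH, and none after MMS. The site chr9:999256-1028877, with its midpoint between genes near DMRT3, had no HU peak of any width.

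The terminal broad peaks were not confined to chromosome 9. The end of the long arm of chromosome 21 held 16 and 13 in untreated cells, 27 and 22 after APH, 19 and 10 after HU, and 2 and 1 after MMS. DIP2A, S100B and PRMT2 lie there, and PRMT2 encodes a protein arginine methyltransferase. The broad HU peaks of this end spanned chr21:42046415-46672851 and chr21:42411562-46597087. Those of untreated cells spanned only chr21:46327776-46673327 and chr21:46460513-46673350. The DIP2A site chr21:46526391-46571391 was covered over 34.1 and 30.8 kb in untreated cells and 44.8 and 40.8 kb after APH, where replicate 1 had a single peak of 44.8 kb, the widest of all. After HU it had 7.62 and 3.22 kb and after MMS 7.61 and 9.44 kb, in each case as separate peaks under 3 kb. The site chr21:46589013-46630547 is 41.5 kb wide and has its midpoint between genes, 4572 bp from S100B, so it reached into that gene. It was broad in 7 of the 8 lists, the most of any site, with 36.7 and 34.8 kb in untreated cells, 38.7 and 41.0 kb after APH, 11.1 and 13.6 kb after HU, and 7.16 and 4.08 kb after MMS. In PRMT2, chr21:46636284-46662016 had 24.9 and 21.1 kb in untreated cells, 25.7 and 24.5 kb after APH, 7.78 and 11.7 kb after HU, and 7.27 and 9.17 kb after MMS.

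Both ends of chromosome 17 carried broad peaks in all conditions, with 20 and 17 on the long arm in untreated cells, 29 and 26 after APH, 14 and 10 after HU, and 0 and 1 after MMS. Those of HU spanned chr17:78282727-82534302 and chr17:78293973-82501652. They lay farther from the end than those of untreated cells, at chr17:82649718-83204671 and chr17:82667050-83204716. On the short arm there were 9 and 4 in untreated cells, 25 and 19 after APH, 26 and 22 after HU, and 1 and 1 after MMS, so that APH lay above untreated cells in both replicates. The HU peaks there spanned chr17:433856-4907228 and chr17:1254283-4840917, against chr17:417788-866246 and chr17:404715-499687 in untreated cells. TBCD, a tubulin cofactor near the long arm end, held 10 and 6 broad peaks in untreated cells and 16 and 12 after APH. VPS53, a subunit of an endosomal tethering complex on the short arm, held 2 and 0 in untreated cells and 11 and 10 after APH. The site chr17:432416-443254 is 10.8 kb wide and has its midpoint 2143 bp from RFLNB, so it reached into that gene. It was broad in 6 lists, with 8.44 and 5.27 kb in untreated cells, 9.96 and 6.04 kb after APH, 7.19 and 1.07 kb after HU, and 0.235 and 3.72 kb after MMS. The end of 5p had 4 and 4 broad peaks in untreated cells and 10 and 12 after APH, and the end of 18q had 4 and 2 in untreated cells and 10 and 8 after APH. Neither of these ends had any after HU or MMS.

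**Figure D4:**
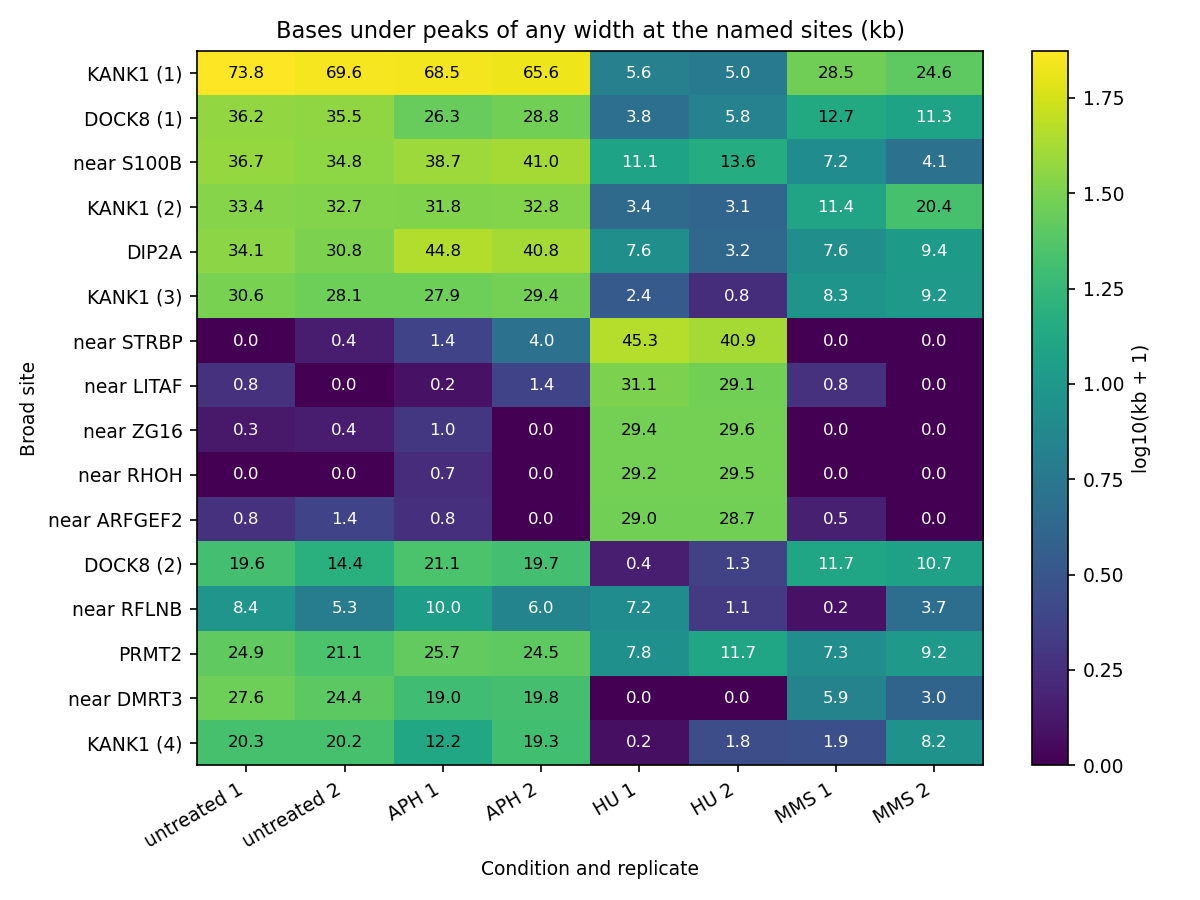
Bases under peaks of any width (kb, printed in each cell and shaded as log10 of kb plus 1) at the 16 named sites, by condition and replicate. Sites at the ends of chromosomes 9 and 21 are widest in untreated and APH-treated cells, up to 73.8 kb, whereas the 5 broadest HU sites, near STRBP, LITAF, ZG16, RHOH and ARFGEF2, have 28.7 to 45.3 kb after HU and 0 to 4.05 kb in all other lists.

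Over whole lists, the broad peaks of untreated and APH-treated cells stood closest together and those of MMS-treated cells farthest apart. In untreated cells the median gap from a broad peak to the nearest other broad peak of the list was 1.60 and 2.25 kb, after APH 2.99 and 3.97 kb, after HU 7.28 and 8.99 kb, and after MMS 16.2 and 34.2 kb. The nearest neighbour lay within 10 kb for 79.9% and 84.8% of the broad peaks of untreated cells, 72.7% and 82.1% after APH, 58.2% and 52.4% after HU, and 33.3% and 18.2% after MMS. Members of 1 list are therefore not independent of each other, and conditions were compared over lists.

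HU gave a different set of broad domains, spread over all 22 autosomes. The broadest HU site, chr9:123274994-123321814, has its midpoint between genes, 29.8 kb from STRBP, which encodes an RNA-binding protein. The site was covered over 45.3 and 40.9 kb in the HU replicates. In the other 6 lists it had 0 to 4.05 kb. The sites that followed were chr16:11623515-11658648 near LITAF, with 31.1 and 29.1 kb, and chr16:29756154-29788746 near ZG16, with 29.4 and 29.6 kb. Next came chr4:40257812-40289276 near RHOH, a small GTPase of blood cells, with 29.2 and 29.5 kb, and chr20:48889615-48920450 near ARFGEF2, a vesicle trafficking factor, with 29.0 and 28.7 kb. In each of these 5 sites both HU replicates were broad and no other list was. The sites were chosen by their width after HU, and of all 5933 sites broad after HU, 5923 were broad only there. The midpoints of all 5 sites lay between genes. The midpoint of the LITAF site was 4701 bp from that gene and that of the ZG16 site 5806 bp from ZG16. These 2 sites, 35.1 and 32.6 kb wide, therefore reached into the gene they are named by.

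Broad HU peaks lay in protein-coding genes less often than narrow HU peaks. The midpoint lay in a protein-coding gene for 42.6% and 42.0% of the broad HU peaks and for 60.9% and 60.7% of the narrow ones. The share fell with width, from 44.7% and 44.4% at 3 to 5 kb to 38.3% and 36.4% at 5 to 10 kb and 30.5% and 29.6% at 10 kb or more. In the other conditions broad peaks lay in genes more often than narrow ones, with 61.9% and 62.5% against 52.9% and 52.9% in untreated cells, 68.3% and 68.2% against 56.5% and 56.6% after APH, and 83.3% and 90.9% against 66.4% and 66.9% after MMS. Introns took 52.5% to 81.8% of the broad peaks outside HU and 35.5% and 34.7% under HU, where 57.4% and 58.0% lay between protein-coding genes. With noncoding genes included, 54.2% and 53.3% of the broad and 70.5% and 70.3% of the narrow HU peaks lay in a gene. The mean difference over all lists was 5.75 points (SD 15.7, n = 8), with an exact two-sided sign-flip p of 0.313 and 0.375 after adjustment. It was −18.5 points under HU (SD 0.311, n = 2) and 13.8 points elsewhere (SD 5.72, n = 6), with an exact permutation p of 0.0357 and 0.0714 after adjustment. Without the MMS lists the mean outside HU was 10.5 points, and without chromosome 9, where the MMS lists dropped out as well, it was 5.51 points, against −18.2 points under HU.

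HU broad peaks nevertheless lay in gene-rich surroundings. The median number of protein-coding gene starts within the surrounding 1 Mb was 15 and 16 for broad and 11 and 12 for narrow HU peaks, while it was 7 to 10 for broad peaks of the other lists. Chromosome 17 had the most broad HU peaks per Mb, at 4.17 and 3.20, and chromosomes 13 and 18 had the fewest, at 0.306 and 0.312 in replicate 1 and 0.225 and 0.112 in replicate 2. Across the 22 autosomes the density of broad HU peaks went with the density of protein-coding genes, with Pearson r of 0.70 and 0.73 and Spearman rho of 0.91 and 0.92. Without chromosomes 17 and 19, r was 0.92 and 0.90 over 20 chromosomes. All points of a correlation come from 1 library and share its depth, so it is a description.

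RMI2, a subunit of the complex that dissolves recombination intermediates, held the most broad HU peaks of any gene over both replicates, 11 and 10, covering 67.2 and 55.3 kb of the gene, and had no broad peak in any other condition. SIL1, a nucleotide exchange factor of the endoplasmic reticulum, held 9 and 6 after HU. Among noncoding genes, GPR84-AS1 held 8 and 7, LINC01588 9 and 6, and EPCAM-DT 12 and 3 after HU. Protein-coding genes with a broad HU peak in both replicates numbered 796 of 19111, or 4.17%, with a median length of 33.9 kb against 27.9 kb for all. In untreated cells there were 20 (0.105%), after APH 25 (0.131%) and after MMS 2 (0.0105%), the latter being KANK1 and DOCK8. Protein-coding genes with an HU peak of any width had a median length of 36.6 and 36.9 kb in the HU replicates. The genes with broad HU peaks were thus not longer than HU-marked genes in general.

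Broad peaks seldom centred on a transcription start site. The midpoint was within 1 kb of a protein-coding start for 0 of 139 and 1 of 112 broad peaks in untreated cells, 0 of 205 and 0 of 173 after APH, 45 of 4581 and 29 of 3308 after HU, and 0 of 12 and 0 of 11 after MMS. As shares these were 0% and 0.893% in untreated cells, 0% in both APH and both MMS lists, and 0.982% and 0.877% after HU. Narrow peaks reached 1.42% and 1.57% in untreated cells, 1.13% and 1.02% after APH, 1.44% and 1.59% after HU, and 1.12% and 1.03% after MMS. The share was lower for broad peaks in 8 of 8 lists, with a mean difference of −0.946 points (SD 0.308), and the exact two-sided sign-flip p was 0.00781, the smallest that 8 lists allow, and 0.0469 after adjustment. With 12 and 11 broad peaks and narrow shares near 1%, a count of 0 was likely in both MMS lists in any case. Their signs were therefore close to fixed, and few hits were to be expected in the untreated and APH lists too. Without the MMS lists the difference was −0.902 points, with an exact sign-flip p of 0.0313 and 0.0938 after adjustment. The call was lost when the 4 condition means replaced the lists, since their smallest exact p is 0.125. It was also lost without any 1 of untreated replicate 1, APH replicate 1 or 2, HU replicate 1 or 2 or MMS replicate 2, with differences of −1.02 to −0.878 points and adjusted exact p of 0.0625 to 0.0938. The median distance to a protein-coding start was shorter for broad than for narrow peaks after HU (14.7 and 14.2 against 20.7 and 19.8 kb). So it was after MMS (24.2 and 11.0 against 29.1 and 31.8 kb), while it was longer in the untreated and APH lists.

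The GC difference between broad and narrow peaks had opposite directions in the HU lists and in the others. The central 500 bp of broad peaks were 45.8% and 46.4% GC after HU against 43.6% and 44.2% for narrow peaks. In untreated cells the values were 45.7% and 44.6% for broad and 46.6% and 45.4% for narrow peaks, after APH 46.1% and 45.1% against 47.2% and 45.9%, and after MMS 42.0% and 41.9% against 45.7% and 44.2%. GC content thus was higher in broad peaks in both HU lists, by 2.16 points on average (SD 0.0245), and lower in the other 6, by −1.59 points (SD 1.17), with an exact permutation p of 0.0357 and 0.0714 after adjustment. Without the MMS lists the mean outside HU was −0.899 points. Without chromosome 9 it turned to 1.03 points over the untreated and APH lists, against 2.18 points under HU, so in these lists the opposite direction was not seen without that chromosome, and the MMS lists kept too few broad peaks to be measured without it. Over all 8 lists the difference was −0.650 points, with an exact sign-flip p of 0.398.

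CpG density was higher in broad than in narrow peaks in 7 of 8 lists. Broad peaks held 7.20 and 6.10 CpG per 500 bp in untreated cells, 7.37 and 7.56 after APH, 6.11 and 6.30 after HU, and 4.08 and 5.36 after MMS, against 4.95 to 5.74 in narrow peaks of the 8 lists. MMS replicate 1, with 12 broad peaks, was the exception. The mean difference of 0.915 (SD 1.1) had an exact sign-flip p of 0.0703 and 0.105 after adjustment, and without MMS replicate 1 it was 1.24 with an adjusted exact p of 0.0469. It was 2.10 without chromosome 9, 0.340 with −log10 p of at least 5 and 0.173 without the chromosome ends, with adjusted exact p of 0.0938, 0.525 and 1, and −0.530 without the surroundings of assembly gaps.

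Simple repeats took up more of the broad peaks in 7 of 8 lists, most evenly under HU. They made up 0.620% and 0.616% of the central 500 bp of broad HU peaks and 0.335% and 0.344% of the narrow ones. The broad peaks of untreated cells had 0.388% and 0.263% against 0.206% and 0.277%, those of APH 0.292% and 0.274% against 0.264% and 0.231%, and those of MMS 0.517% and 0.691% against 0.196% and 0.238%. The mean difference was 0.196 points (SD 0.165), with an exact sign-flip p of 0.0156 and 0.0469 after adjustment. Without chromosome 9 the mean was 0.0910 points (adjusted exact p = 0.338), with 0.280 points under HU and −0.00372 points elsewhere, where it was 0.0596 points without the MMS lists alone. The call was lost without any 1 list other than untreated replicate 2, with differences of 0.159 to 0.220 points and adjusted exact p of 0.0625 to 0.0938. A run of at least 10 A or at least 10 T, which covers both strands, lay in the central 500 bp of 24.3% and 24.7% of broad and 16.7% and 16.5% of narrow HU peaks. The same runs lay in 12.2% to 22.4% of broad and 7.61% to 9.55% of narrow peaks in the untreated and APH lists. In the MMS lists they lay in 0% and 36.4% of broad and 9.31% and 10.7% of narrow peaks, so the 2 replicates went in opposite directions.

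Broad peaks were found again in the other replicate far more often than narrow ones. The midpoint of a broad peak lay in a peak of the other replicate for 66.2% and 88.4% in untreated cells, 72.2% and 72.8% after APH, 56.9% and 66.7% after HU, and 50% and 27.3% after MMS. For all peaks of the same lists the shares were 10.4% and 14.5%, 6.33% and 8.47%, 26.8% and 34.5%, and 3.51% and 3.92%, and for narrow peaks 5.77% and 8.28%, 4.35% and 6.09%, 20% and 27.0%, and 3.12% and 3.48%. The difference averaged 52.8 points (SD 18.5, n = 4 condition means) and was positive in 8 of 8 lists, with an exact two-sided sign-flip p of 0.125, the smallest that 4 conditions allow. Without the 5 Mb at chromosome ends it was 25.9 points over the 2 conditions left, APH and HU. It was 41.7 points without the surroundings of assembly gaps and 58.9 points without chromosome 9, over 3 conditions each. Measured by any overlap of at least 1 bp, 81.8% to 100% of the broad and 5.09% to 37.9% of the narrow peaks were shared. Such an overlap becomes more likely with the width by which the peaks were chosen, so these shares are a description. Sharing rose with width under HU, from 53.0% and 63.8% at 3 to 5 kb to 80.8% and 77.8% at 10 kb or more.

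Part of the shared positions were broad in both replicates. The midpoint lay in a peak of the other replicate that was also broad for 45.3% and 77.7% in untreated cells, 50.7% and 56.1% after APH, 29.2% and 42.0% after HU, and 8.33% and 9.09% after MMS. When overlapping broad peaks of all lists were merged, 6163 sites resulted. Of these, 59 of the 119 sites broad in untreated cells were broad in both replicates, 95 of 217 after APH, 1599 of 5933 after HU, and 2 of 17 after MMS. Most sites, 4439, were broad in a single list.

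Broad peaks of untreated and MMS-treated cells mostly lay in APH peaks. HU peaks of either width class seldom lay in peaks of another condition, whose lists cover little of the genome. The broad peaks of untreated cells had their midpoint in an APH peak of any width for 80.8% on average (78.6% to 85.7% over the 4 pairs of lists), in an MMS peak for 15.8%, and in an HU peak for 11.4%. Those of APH lay in untreated peaks for 61.4% (52.7% to 67.1%) and in HU peaks for 11.5%. Those of MMS lay in untreated peaks for 88.8% (81.8% to 100%) and in APH peaks for 93.6% (83.3% to 100%). Broad HU peaks lay in untreated, APH and MMS peaks for 1.14%, 2.82% and 1.5%, and narrow HU peaks for 0.825%, 2.12% and 1.45%. For narrow peaks of untreated cells the order was reversed, with 11.2% in APH peaks and 28.3% in HU peaks, the HU lists covering far more of the genome (89.6 and 73.8 Mb against 3.36 to 12.4 Mb). The lists outside HU covered only 3.36 to 12.4 Mb of 2756 Mb of assembled autosomes. The low shares of HU peaks in them therefore do not show that HU peaks avoided these regions. All lists come from 1 cell line and were normalized to input signal, and the shares were not tested.

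**Figure D5:**
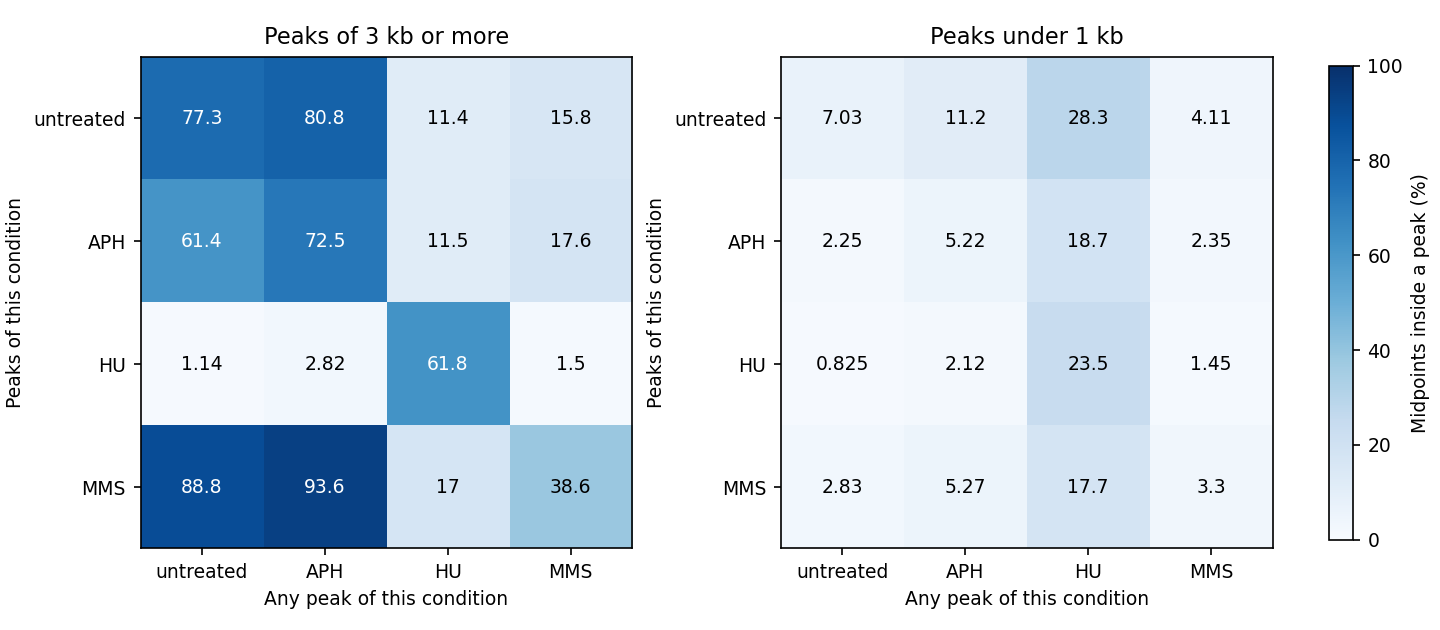
Percent of peak midpoints of the condition in the row that lie in a peak of any width of the condition in the column, averaged over pairs of lists (over the 2 replicates on the diagonal), for broad peaks on the left and narrow peaks on the right. Broad peaks of untreated, APH-treated and MMS-treated cells fall in untreated or APH peaks for 61.4% to 93.6%, and broad HU peaks in peaks of other conditions for 1.14% to 2.82%.

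Counted as sites, 22 were broad only in untreated cells, 114 only after APH, 5923 only after HU and 0 only after MMS. Broad after HU and in another condition were 10 of the 5933 sites broad after HU. By midpoints, broad HU peaks lay in broad peaks of untreated, APH and MMS lists for 0.0718%, 0.109% and 0.00546% on average. Narrow HU peaks lay in the same broad peaks for 0.137%, 0.183% and 0.00916%, so both classes were low. Of the 240 sites broad outside HU, 226 lay within 5 Mb of a chromosome end, and 112 had no HU peak of any width. No site was broad in all 8 lists.

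Away from the chromosome ends, 14 broad APH peaks remained, 12 of them in replicate 1. Among these, 4 lay in introns of WWOX, at chr16:78499370-78503080, chr16:78670075-78674006, chr16:78764890-78769176 and chr16:78779919-78783225, and 3 in introns of FHIT, at chr3:60632638-60635661, chr3:60645277-60648637 and chr3:60855025-60858833. WWOX is an oxidoreductase and FHIT a diadenosine triphosphate hydrolase, and both genes span well-known common fragile sites. All 7 peaks measured 3.02 to 4.29 kb, just above the threshold, and the other replicate covered 0% to 34.6% of each. Replicate 2 had no broad peak in either gene. Peaks of any width in WWOX nevertheless numbered 160 and 53 in the APH replicates against 5 and 1 in untreated cells, 0 and 0 after HU and 3 and 6 after MMS. In FHIT they numbered 163 and 48 after APH, 0 and 2 in untreated cells, 2 and 1 after HU, and 5 and 4 after MMS. The APH lists thus were above all other lists in both genes, and nearly all of these peaks were under 3 kb.

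WWOX and FHIT belong to a list of 25 large common fragile site genes. In APH replicate 1, 2 of 25 genes had a broad peak against 0.246% of all protein-coding genes, and in APH replicate 2 it was 0 of 25 against 0.157%. After HU 1 of 25 had a broad peak in each replicate, against 8.66% and 6.48% of all genes. No gene of the list had one in the untreated lists, where the share of all genes was 0.131% and 0.115%, or in the MMS lists, where it was 0.0262% and 0.0314%. The median gene of the list is 1195 kb long against 27.9 kb for all protein-coding genes, which gives it more bases in which a peak can fall.

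Among 30 genes for B-cell identity and translocation, broad peaks were found in the HU lists and in 0 of 30 genes elsewhere, where 0.0262% to 0.246% of all protein-coding genes had one. In each HU replicate 5 of the 30 genes had a broad peak, against 8.66% and 6.48% of all protein-coding genes, and 4 had one in both, against 4.17% of all protein-coding genes. These were IRF4 and IRF8, transcription factors of the lymphoid lineage, CXCR5, the receptor that guides B cells into follicles, and CIITA, the activator of MHC class II genes. IRF4 had 5.70 and 7.10 kb under broad peaks and IRF8 3.65 and 4.08 kb, while CXCR5 had 0.619 and 6.65 kb and CIITA 0.539 and 1.93 kb, so the latter were touched at an edge in at least 1 replicate. CD22, an inhibitory receptor of B cells, had 3 broad peaks in HU replicate 2 only, and RHOH 1 in replicate 1 only. Of 30 genes of the replication stress response, RPA2 and TIMELESS had 1 broad peak each in HU replicate 1, where the share of all genes was 8.66%, and none in any other list.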

How the data were processed

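γH2AX ChIP-seq peaks of 8 libraries of 1 lymphoblastoid line were analysed. The authors trimmed adaptors and aligned the reads with Bowtie2 to the GRCh38 assembly. Poorly mapped reads, PCR duplicates and blacklisted regions were taken out, signals were normalized to input, and MACS2 called broad regions in every replicate separately at a p-value cutoff. Tool versions are not given in the sources used here. For each peak the deposited lists hold a score, which was not used, and a ratio, the fold enrichment over background. The authors' peak caller wrote p-values and q-values on the −log10 scale. Peak lists hold no read numbers, so the depth is unknown and precision rests on the 2 replicates. Replicates and conditions came from the sample labels.

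Peaks on the 22 autosomes were used, leaving out 214 on other sequences. A broad peak was at least 3000 bp and a narrow one under 1000 bp wide. GC content, CpG and perfect tandem repeats (units up to 6 bp, at least 20 bp) were measured in the 500 bp around the midpoint on the reference, and genes came from GENCODE release 44. Broad minus narrow differences per list were tested with exact two-sided sign-flip tests over lists with at least 5 broad peaks (over condition means for replicate sharing), HU against the other lists with exact permutation tests, and p-values were adjusted by Benjamini-Hochberg over 6 features. Overlapping broad peaks were merged into sites. Each site was placed by the gene at its midpoint, or else by the nearest protein-coding gene. A site called near a gene can therefore reach into it. Named by rule were, per condition, the 5 broadest sites with a broad peak in at least 1 replicate and any peak in the other, the 10 sites broad in most lists, per condition the gene with most broad peaks over both replicates, and up to 4 genes of each gene list, those broad in most lists. TBCD, VPS53, DMRT1, SIL1, GPR84-AS1, LINC01588, EPCAM-DT, CD22, the chromosome ends other than that of 9p, the RHOH gene, and the gene counts of DOCK8 fell outside it and were chosen after their values were seen. The members and lists were chosen with earlier results of these data known. Calculations used Python 3.11.15, numpy 2.4.6, pandas 2.3.3, scipy 1.17.1 and samtools 1.23.1 and were tested on simulated data. Alternatives were other width limits, comparison with all peaks under 3000 bp, −log10 p of at least 5, leaving out 5 Mb at chromosome ends or 1 Mb around assembly gaps (chromosome ends included), other units of replication, other definitions of each feature, a replicate block, and leaving out each replicate. Leaving out the MMS lists, leaving out chromosome 9, and the higher width limit for HU against the others were added after the data were seen. Some sequences and 1 gene are not reported here.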

Additional observations from a re-analysis of the deposited data

Results flagged for a closer look

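In 3 features the HU lists and the other lists differed from their narrow peaks in opposite directions, and the difference between them was tested by exact permutation (2 against 6 lists, p = 0.0357, the smallest possible, 0.0714 after adjustment). Broad minus narrow GC content was 3.75 points higher under HU, the share of midpoints in protein-coding genes differed by −32.4 points, and the share near chromosome ends by −83.6 points. Without the MMS lists the differences were 3.06, −29.1 and −80.8 points, and without chromosome 9 they were 1.14, −23.7 and −81.5 points. The lists are not fully independent units, since replicates of a condition share broad sites. No group held 4 or more samples, so single samples could not be examined as outliers.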

How the results depend on the processing

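Of 210 values recomputed under alternatives, 161 kept direction and side of the threshold, 29 lost their call, 5 gained one and 15 changed direction. Values are broad minus narrow means in percentage points, or CpG per 500 bp. GC content turned to 0.270 with broad peaks from 2000 bp, 0.893 with −log10 p of at least 5, 0.239 without the chromosome ends, 0.122 without the MMS lists and 1.42 without chromosome 9. Gene bodies turned to −4.34 with −log10 p of at least 5, −0.504 without the ends, −24.5 without gap surroundings and −2.40 without chromosome 9, and CpG density to −0.530 without gap surroundings. The start-site call was lost at −0.873 (from 4000 bp), −1.22 (−log10 p), −0.734 (ends), −1.04 (gaps), −0.946 (condition means), −3.47 (starts within 5 kb), −0.902 (MMS) and −0.773 (chromosome 9), and with single lists left out it ranged from −1.02 to −0.878. The simple-repeat call was lost at 0.0702 (from 4000 bp), 0.178 (against all peaks under 3000 bp), 0.0498 (−log10 p), 0.705 (ends), 0.586 (gaps), 0.196 (condition means), 0.132 (MMS) and 0.0910 (chromosome 9), with a range of 0.159 to 0.226 over single lists left out. Calls were gained for CpG density at 1.24 from 2000 bp and 1.3 over whole peaks (0.723 to 1.24 with single lists left out), for chromosome ends at 46.9 from 2000 bp, and for replicate sharing at 52.8 when 8 lists replaced 4 condition means (exact p = 0.00781). HU minus the other lists turned to 0.578 for CpG and −0.135 for start sites with −log10 p of at least 5, and for CpG it ranged from −0.574 to 0.149 with single lists left out. With the replicate block, the HU differences in GC content, gene bodies and chromosome ends stayed at 3.75, −32.4 and −83.6, with an exact permutation p of 0.0625, the smallest possible, and no call changed. Lists with fewer than 5 broad peaks dropped out, among them both MMS lists with −log10 p of at least 5, without the ends, without gap surroundings and without chromosome 9, and both untreated lists without the ends. The cause of these changes was not tested.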
